A study of Mus musculus with 11 samples.

Results

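Poised cells, the fibroblasts that had begun to reprogram and were sorted for CD49d or CD73, were set against SC4, a partially reprogrammed cell line. The comparison used 5 of the 11 arrays of the series, namely CD49d+ and CD73+ cells at day 6 and at day 9, each minus the 1 SC4 array. Genes were taken as different when all 4 poised arrays lay at least 2-fold (1 log2 unit) from SC4 on the same side. Of 12963 genes above the measuring floor on at least 1 of the 5 arrays, 293 (2.26%) were higher in poised cells and 191 (1.47%) were lower.

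The poised cells came from Rosa-rtTA +/- mouse embryonic fibroblasts at passage 4, which carry a doxycycline-controlled activator at the Rosa locus. They were infected with viruses for Klf4, Oct4, Myc and Sox2 under a doxycycline-dependent (tetO) promoter, doxycycline was added 1 day later (day 0), and the cells were sorted in 2 rounds for CD73 or CD49d. SC4 cells were at passage 10 and grew in fibroblast medium with more serum. Uninfected fibroblasts (MEF) and embryonic stem cells (ESC) served as outside points of comparison, with 1 array each. SC4 is a single line, and the labels give neither its parent cells, nor the sex of any cells, nor whether it still received doxycycline. Each group had 1 array and none had a replicate, so no difference from SC4 was tested. All 4 differences of a gene shared the SC4 array, so their agreement on that side is not independent. In sorted populations, fewer cells expressing a gene and less RNA per cell cannot be told apart.

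When fibroblasts are reprogrammed by transcription factors, they first lose fibroblast expression and gain epithelial features, and only a minority go on to activate the pluripotency network. Partially reprogrammed lines are cells that grow stably with stem cell-like colonies but have not activated core pluripotency genes such as Nanog. Poised cells are an earlier, passing population enriched for cells that will complete the process. Whether the poised state resembles such stalled lines is the question the comparison addresses.

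The 3 genes given as markers of the contrast behaved differently from each other. Tgm3, a transglutaminase that crosslinks proteins of the cornified envelope, had intensities of 1893 in CD49d+ day 6, 817 in CD73+ day 6, 2781 in CD49d+ day 9 and 1701 in CD73+ day 9 cells, against 157 in SC4. It was thus 5.19-fold to 17.7-fold higher on all 4 arrays. Dppa2, a DNA-binding factor of early embryos and stem cells, was at the floor of 100 on all 4 poised arrays, against 685 in SC4, and was at least 6.85-fold lower; ESC had 2713. Trh, the precursor of thyrotropin-releasing hormone, had 3839, 1219, 4344 and 2713 in the same order of poised arrays, against 716 in SC4. All 4 poised arrays lay above SC4 in Trh, but by 1.70-fold to 6.07-fold, so that CD73+ day 6 cells missed the 2-fold limit.

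The promoters of both markers that were higher are shown with that of Sprr2b, a cornified envelope gene that went the other way. Each is the RefSeq sequence (GRCm38.p6) from 250 bases before to 50 bases after the gene's start, 5′ to 3′ on the gene's strand, with CG dinucleotides and TATAAA in capitals. Tgm3 lies at chr2:130012090-130012389 (plus strand), Trh at chr6:92244601-92244900 (minus strand) and Sprr2b at chr3:92316455-92316754 (plus strand).
Tgm3: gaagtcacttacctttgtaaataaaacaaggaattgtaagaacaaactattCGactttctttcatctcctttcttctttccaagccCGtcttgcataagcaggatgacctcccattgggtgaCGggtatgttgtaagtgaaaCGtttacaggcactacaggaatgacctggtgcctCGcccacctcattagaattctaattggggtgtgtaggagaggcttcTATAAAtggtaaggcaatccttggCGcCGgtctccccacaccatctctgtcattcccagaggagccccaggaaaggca
Trh: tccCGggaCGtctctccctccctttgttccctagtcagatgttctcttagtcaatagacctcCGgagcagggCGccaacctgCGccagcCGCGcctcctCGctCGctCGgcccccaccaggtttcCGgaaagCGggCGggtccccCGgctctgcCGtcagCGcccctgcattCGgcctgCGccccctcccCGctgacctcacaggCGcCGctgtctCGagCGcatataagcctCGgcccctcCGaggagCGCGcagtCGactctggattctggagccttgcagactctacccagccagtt
Sprr2b: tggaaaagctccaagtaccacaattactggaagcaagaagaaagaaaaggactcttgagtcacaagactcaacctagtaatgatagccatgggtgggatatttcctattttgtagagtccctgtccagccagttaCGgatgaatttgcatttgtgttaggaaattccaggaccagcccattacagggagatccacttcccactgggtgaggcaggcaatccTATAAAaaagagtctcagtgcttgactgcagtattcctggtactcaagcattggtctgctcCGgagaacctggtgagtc
The Trh promoter holds 28 CG dinucleotides, that of Tgm3 holds 7 and that of Sprr2b holds 2, against a median of 7 over the 27025 genes with a promoter sequence. TATAAA stands 28 bases before the start of Tgm3 and 29 bases before that of Sprr2b, and is not among the letters of the Trh window on either strand. Of all promoters of this length, 14.2% hold TATAAA on either strand. Promoter sequence was matched for 74.7% of the genes higher in poised cells and 67.5% of those lower, which is too few for a comparison of promoter features over the lists, and that check is void.

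The sorting markers and Klf4 gave a signal on both sides of the comparison. Nt5e, the ectonucleotidase CD73, had 2828, 3438, 2704 and 3658 in the 4 poised populations, against 3738 in SC4, and all 4 lay a little below SC4. Itga4, the integrin chain CD49d, had 1859, 1082, 1588 and 1206, against 566 in SC4, which made it 1.91-fold to 3.28-fold higher. Klf4, a zinc finger factor of the reprogramming set, had 3997, 3930, 3971 and 3900 in poised cells, against 5255 in SC4. The growth regulator Myc had 241, 195, 236 and 165, against 220 in SC4, with poised arrays on both sides of the line. Sox2 was at the floor on all 5 arrays, and the Pou5f1 probe set read 115 to 142 in poised cells, 143 in SC4 and 123 in ESC, so it gave no usable level of Oct4. The sources do not say whether the introduced factor copies are read by these probe sets.

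**Figure D1:**
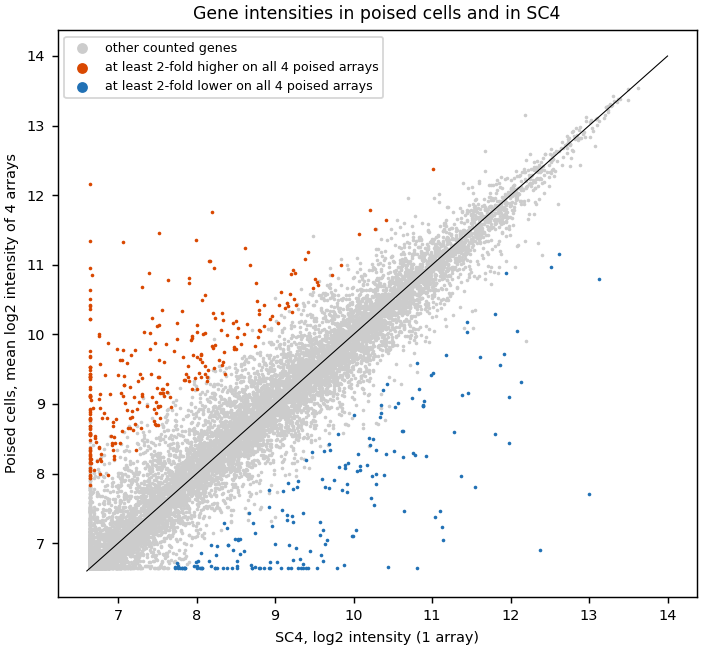
Mean log2 intensity of the 4 poised arrays (vertical axis) against log2 intensity on the SC4 array (horizontal axis) for 12963 genes, with the line of equal intensity. The 293 genes at least 2-fold higher on all 4 poised arrays and the 191 lower ones stand off the line, and 66 of the higher genes sit at the SC4 floor of 100.

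Most genes were close to equal. The median difference over all counted genes was 0.0032 log2 units, and a further 9217 named genes were at the floor on all 5 arrays. Single poised arrays had 614 genes higher than SC4 (4.74%) and 303 lower (2.34%) for CD49d+ day 6, and 579 (4.47%) and 334 (2.58%) for CD73+ day 6. At day 9 they had 493 (3.8%) and 256 (1.97%) for CD49d+, and 610 (4.71%) and 353 (2.72%) for CD73+. Of the genes higher on any poised array, 30.3% were higher on all 4, and of those lower on any, 40.5% were lower on all 4. A single gene was 2-fold higher on one poised array and 2-fold lower on another. In SC4, 66 of the 293 higher genes were at the floor, and 37 of the 191 lower genes were at the floor on all 4 poised arrays; their folds are lower bounds. Among 8235 probe sets without a single gene name, 57 (0.692%) were higher and 115 (1.4%) lower by the same rule. At the limit itself, the receptor kinase Ret (smallest of its 4 log2 differences 1.003) was counted as higher and Baiap2l1 (0.9998) was not, and Tdrp (smallest size 1.01) was counted as lower and Pced1b (0.998) was not.

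The genes furthest above SC4 included Xist, several imprinted genes and a set of matrix and mesenchymal genes. Xist, the RNA that coats the inactive X chromosome, had 4185, 4848, 3878 and 5530 in CD49d+ day 6, CD73+ day 6, CD49d+ day 9 and CD73+ day 9 cells, against the floor of 100 in SC4. It was at least 38.8-fold higher on every poised array, and MEF and ESC had 3550 and 130. Slc38a4, an amino acid transporter gene that is imprinted in the mouse, had 1998, 2236, 1924 and 1820, against the floor in SC4, a difference of at least 18.2-fold. Grb10, an imprinted adaptor of the insulin receptor, had 2641, 2762, 2220 and 2641, against 134 in SC4 (16.6-fold to 20.7-fold). These genes were chosen for a large difference on the lowest poised array, and their levels were not particular to poised cells. At day 6 and day 9, CD73- cells had 4168 and 4073 for Xist, 3167 and 3457 for Slc38a4, and 2691 and 2727 for Grb10.

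Several enzymes and receptors followed. Capn6, a calpain family member, had 3295, 3802, 1683 and 2118 in poised cells, against the floor in SC4. Gucy1b1, a subunit of soluble guanylate cyclase, had 1501, 1726, 1993 and 2266, against 102 in SC4 (14.8-fold to 22.3-fold). Its partner subunit Gucy1a1, picked out after its values were seen, had 310 to 690 on the poised arrays, against the floor in SC4. Both chains of the enzyme were thus above SC4 on all 4 poised arrays. Aldh1a1, which makes retinoic acid from retinal, had 1238, 1542, 1624 and 1474, against the floor in SC4 (at least 12.4-fold). MEF and ESC had 131 and 100 for Aldh1a1, so it was low at both end points. Its signal was not particular to poised cells. Cells sorted as CD73- had 608 at day 6 and 1103 at day 9, and unsorted cells had 1174 and 1424. Bmx, a Tec family kinase, had 911 to 1515 in poised cells and was at the floor in SC4, MEF and ESC alike. The serotonin receptor Htr2a had 984 to 1652, against the floor in SC4, and the glycosyltransferase B3galnt1 had 836 to 1253, against 108. Rps13, a protein of the small ribosomal subunit, had 1760, 1819, 2090 and 1931 in poised cells, against 167 in SC4 (10.5-fold to 12.5-fold), while MEF and ESC had 1913 and 1601. SC4 was the low array for Rps13 among these 7.

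The genes furthest below SC4 were led by a detoxifying enzyme and an epidermal protein. Cyp2b23, a cytochrome P450, had 100, 100, 117 and 176 in the 4 poised populations, against 5306 in SC4. It was 30.1-fold to 53.1-fold lower, with 2 of the 4 poised arrays at the floor. Sprr2b, a small proline-rich precursor of the cornified envelope, had 177, 134, 315 and 252, against 8169 in SC4 (25.9-fold to 61.0-fold lower). Both genes were chosen for their distance from SC4 on every poised array. For Cyp2b23 and Sprr2b, MEF had 100 and 178, and ESC had 714 and 174. Aspa, which splits acetylaspartate, was at the floor on all 4 poised arrays, against 1793 in SC4, and was at least 17.9-fold lower. Nmnat2, an NAD-synthesising enzyme, had 150.5, 133, 174 and 146, against 2243 in SC4.

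A pair of neuroendocrine genes was among them. Penk, the enkephalin precursor, had 279, 231, 266 and 148 in poised cells, against 2992 in SC4 (10.7-fold to 20.2-fold lower). Pcsk1, a convertase that cleaves prohormones, had 139, 100, 190 and 115, against 2259 in SC4 (11.9-fold to 22.6-fold lower, 1 poised array at the floor). The same direction held for Mme, the peptidase neprilysin, with 279 to 528 in poised cells, against 3572 in SC4. The protease inhibitor Serpinb9b had 112 to 226, against 2195, and the acetyltransferase family genes Nat8f3 and Nat8f7 had at most 341 and 114, against 2654 and 940 in SC4. Clec2i, a lectin-like ligand, Tcerg1l and Palmd were at the floor on all 4 poised arrays, against 881, 742 and 652 in SC4. A signal in some of these genes was not particular to SC4. Serpinb9b had 1498 and 1785 in unsorted cells at day 6 and day 9, and 591 in MEF. Mme had 1461 in MEF and 1497 in CD73- day 6 cells, and Palmd had 632 in MEF. The Cyp2b, Sprr2 and Nat8f families have closely similar copies, and the sources do not say how far their probe sets read other members.

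**Figure D2:**
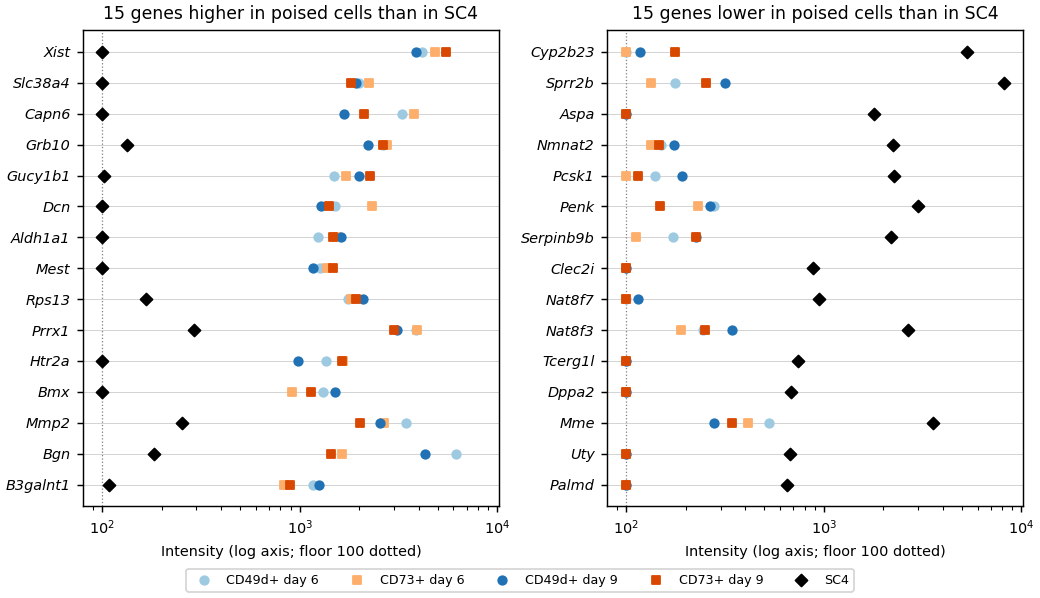
Intensity (log axis) on the 4 poised arrays and in SC4 for the 15 genes higher and the 15 lower in poised cells with the greatest smallest difference; the dotted line is the floor of 100. The genes were chosen for lying apart from SC4 on all 4 poised arrays, so that separation is not a result. Xist is at 3878 to 5530 against the floor on the left, and Sprr2b is at 134 to 315 against 8169 on the right.

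Xist and genes of the Y chromosome moved in opposite directions. Uty, a Y-linked histone demethylase relative, was at the floor on all 4 poised arrays, against 672 in SC4, and Eif2s3y, a Y-linked translation factor, likewise, against 625 in SC4. They were at least 6.72-fold and 6.25-fold lower. Sly, another Y-linked gene, which was picked out after its values were seen, was at the floor on all 4 poised arrays, against 491 in SC4. MEF and ESC were both at the floor for Sly, whereas for Uty and Eif2s3y MEF were at the floor and ESC had 439 and 849. Poised cells thus shared high Xist and floor-level Uty, Eif2s3y and Sly with the MEF array. Kdm5d, Usp9y and Sry were at the floor on all 5 arrays. The median difference of the 349 X-linked genes above the floor on all 5 arrays was 0.05 log2 units, and 57.6% of them lay above SC4 on average. Of 417 X-linked genes counted, Xist among them, 13 (3.12%) were higher and 6 (1.44%) lower. Over all counted genes the shares were 2.26% and 1.47%.

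Core genes of the pluripotency network were at the floor in poised cells and in SC4, while 3 other members were lower in poised cells. Of 45 genes listed, 42 had a probe set, and 12 of these were at the floor on all 5 arrays, among them Nanog, Sox2, Esrrb, Zfp42 and Dppa5a. Nanog, the homeodomain factor of the naive state, had 5019 in ESC. Dppa5a read only 148 in ESC, so its floor values on the 5 arrays say little. Of the 30 genes counted, none was 2-fold higher in poised cells on all 4 arrays and 3 were lower, with a list median of -0.26 log2 units against 0.0032 over all genes. On all 4 poised arrays 18 of the 30 (60.0%) lay below SC4 by any amount and 5 (16.7%) lay above it, against 29.0% and 28.2% of all counted genes. Nr5a2, a nuclear receptor that can stand in for Oct4, had 113, 100, 415 and 161 in poised cells, against 2108 in SC4 and 895 in ESC. It was 5.08-fold to 21.1-fold lower, and CD49d+ day 9 cells were the highest of the poised populations. Gdf3, a TGF-beta family ligand of stem cells, was at the floor on all 4 poised arrays, against 308 in SC4 and 796 in ESC (at least 3.08-fold lower). With Dppa2, these were the members that passed.

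Other network genes, picked out after their values were seen, were present on both sides. Nr0b1, a nuclear receptor cofactor of stem cells, had 3908, 5284, 4755 and 5280 in poised cells, against 4116 in SC4, 100 in MEF and 1815 in ESC. The growth factor Fgf4 had 927, 809, 1266 and 1205, against 1763 in SC4, and the ETS factor Etv5 had 1848 to 2193, against 2561. All 3 were already above their MEF level at day 6 in both gates. The RNA-binding protein gene L1td1 had 392, 365, 725 and 612, against 1394 in SC4, and Jarid2, a Polycomb partner, had 835, 1166, 818 and 1063, against 1921. Both were lower on all 4 arrays, and neither by 2-fold on all 4. Utf1, a chromatin factor of stem cells, went the other way, with 225, 288, 551 and 504, against 160 in SC4, still far under 6013 in ESC. Dppa4, the partner of Dppa2, read 100 on all 4 poised arrays, against 100.5 in SC4 and 1446 in ESC, so of this pair Dppa2 was the gene with a signal in SC4.

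**Figure D3:**
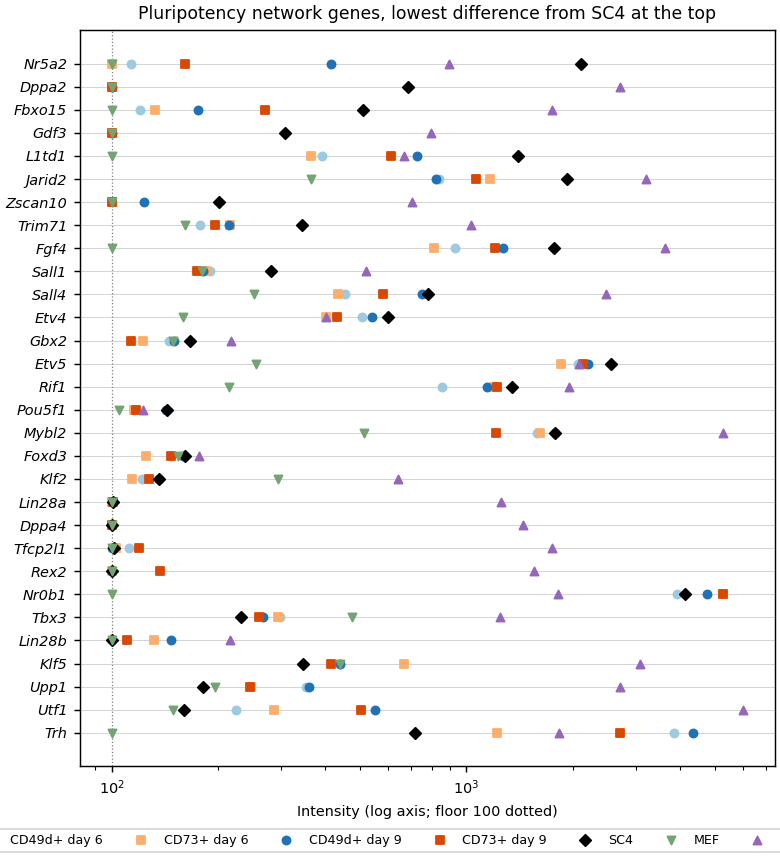
Intensity (log axis) of the 30 counted pluripotency network genes on the 4 poised arrays, in SC4, in MEF and in ESC, ordered by the mean difference of poised cells from SC4; the dotted line is the floor of 100. Nr5a2, Dppa2 and Gdf3 are above the floor level in SC4, and 18 of the 30 genes lie below SC4 on all 4 poised arrays.

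Mesenchymal and matrix genes were more often higher than lower in poised cells. List counts here and below stand beside 2.26% higher and 1.47% lower over all counted genes. Of 41 counted mesenchymal and fibroblast genes, 9 were higher (Snai2, Prrx1, Meox2, Dcn, Postn, Lox, Bgn, Ddr2 and Mmp2) and 1, the fibulin Efemp1, was lower; the list median was 0.71 log2 units. Postn no longer passed with values under 150 set to 150. Prrx1, a limb mesenchyme homeobox factor, had 3892, 3953, 3125 and 2991 in poised cells, against 293 in SC4, 5138 in MEF and 280 in ESC (10.2-fold to 13.5-fold). Dcn, the collagen-binding proteoglycan decorin, had 1516, 2320, 1286 and 1414, against the floor in SC4 and 6584 in MEF. Mmp2, a collagen-degrading protease, had 3464, 2667, 2561 and 2020, against 254 in SC4. Poised cells lay between SC4 and MEF in Prrx1, Dcn and Mmp2. Of 19 TGF-beta response genes, 3 were higher (Tgfb3, Thbs1 and Ltbp1) and 1 was lower (Ccn2), with a median of 0.58. The ligand Tgfb3 had 1187, 961, 692 and 738, against 148 in SC4, and Ltbp1, which anchors latent TGF-beta in the matrix, had 678 to 1017, against 192. Ccn2, a matricellular protein gene, had 806, 351, 572 and 387, against 1891 in SC4; with all its probe sets averaged, its mean difference was -0.96 log2 units and it no longer passed.

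The gates differed in how far these genes stood above SC4. Acta2, smooth muscle actin, had 5172 at day 6 and 3104 at day 9 in the CD49d+ gate, and 463 and 450 in the CD73+ gate, against the floor in SC4. Bgn, the proteoglycan biglycan, had 6205 and 4326 in the CD49d+ gate, and 1633 and 1443 in the CD73+ gate, against 184 in SC4, and its mean log2 difference was 3.94, or 2.44 with its probe sets averaged. Thbs1, a matrix glycoprotein that activates latent TGF-beta, had 3463 and 1395 in the CD49d+ gate, and 787 and 529 in the CD73+ gate, against the floor in SC4. In these 3 genes CD49d+ cells were the higher gate at both days and both gates were above SC4. CD49d+ was at least 2-fold above CD73+ at both days in 27 counted genes (0.208%), of which 5 were among the 293 higher members: Acta2, Bgn, Thbs1, Postn and Crabp1. CD49d+ was 2-fold below CD73+ at both days in 19 counted genes (0.147%), none of them among the 293 or the 191. Of all counted genes, 2.26% were higher members and 1.47% lower members, so none among 19 is near those shares. The poised arrays enter both the gate comparison and the choice of members, so these overlaps are not independent. Of 14 smooth muscle contractile genes, Acta2 and Actg2 were higher and none was lower, with a median of 0.31.

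Between the days, 10 counted genes (0.0771%) were at least 2-fold higher at day 9 in both gates and 6 (0.0463%) were lower. Of the genes that differed from SC4, picked out after their values were seen, Ly6g6c, a Ly6 family surface protein gene, had 1041 and 1041 at day 6 and 2522 and 3548 at day 9, against 199 in SC4. Srgn, the granule proteoglycan serglycin, had 362 and 343 at day 6 and 808 and 900 at day 9, against 4025 in SC4, so the day 9 cells were closer to SC4. Fgfbp1, an FGF carrier protein gene, had 240 and 259 at day 6 and 681 and 559 at day 9, against 1579 in SC4. In the other direction, the homeobox gene Meox2 had 736 and 1062 at day 6 and 325 and 382 at day 9, against the floor in SC4, so the day 6 cells stood further above it.

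Several imprinted genes were among those furthest from SC4. Of 25 counted imprinted genes, 6 were higher in poised cells (Igf2r, Mest, Plagl1, Grb10, and Dcn and Gatm, which are imprinted in mouse placenta) and 1 was lower (Peg3), with a list median of 0.26 log2 units. Mest, a paternally expressed gene of the alpha/beta hydrolase family, had 1273, 1376, 1171 and 1478, against the floor in SC4, 4435 in MEF and 3119 in ESC (at least 11.7-fold). Gatm, the first enzyme of creatine synthesis, had 522, 590, 537 and 563, against the floor in SC4. Peg3, a paternally expressed zinc finger gene, had 876, 910, 637 and 632, against 3730 in SC4. SC4 was thus low in some imprinted genes and high in another. Rian, a maternally expressed noncoding RNA picked out after its values were seen, had 376, 225, 188 and 384, against the floor in SC4, and Igf2 had 222 to 435, against 235.

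The cell adhesion and epidermal genes were divided. Of 31 epithelial junction genes, Dsp and Pkp2, both desmosome plaque proteins, were higher and Dsg2, a desmosomal cadherin, was lower, with a median of 0.10. Dsp had 1299, 1296, 1500 and 1510 in poised cells, against 566 in SC4, while Dsg2 had 100, 100, 113 and 104, against 656, a mean log2 difference of -2.65, or -1.33 with its probe sets averaged. Of 12 keratin genes, Krt13 was higher (246 to 465, against the floor in SC4) and none was lower, with a median of 0.46; with values under 150 set to 150, Krt13 was 1.64-fold higher on its lowest array and no longer passed. Of 16 cornified envelope and keratinocyte genes, Tgm3 was higher and Klk10 and Gsta4 were lower, with a median of 0.06. The kallikrein Klk10 had 189 to 287 in poised cells, against 1338 in SC4, and unsorted cells had 1276 at day 6 and 693 at day 9. Sprr2b was not on this list, and with Tgm3 it leaves epidermal genes on both sides of the comparison. Of 19 basement membrane genes, the integrin chain Itgb4 was higher, with 940, 983, 1594 and 2872, against 435 in SC4, and the list median was 0.03.

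Of 27 surface markers used in reprogramming work, 5 were higher in poised cells (Pdpn, Itgb4, Itga5, Cd34 and Prom1) and none was lower, with a median of 0.32; Cd34 no longer passed with values under 150 set to 150, nor Itga5 with each array centred on its median. The mucin-type glycoprotein Pdpn had 702, 611, 624 and 689, against the floor in SC4 and 3253 in MEF (at least 6.11-fold). Prom1, the stem cell surface protein CD133, had 532, 594, 569 and 680, against 189 in SC4. Of 23 neural and neuropeptide genes, 5 were higher (Tac2, Crmp1, Map2, Nes and Syt1) and 2 were lower (Sst and Penk), with a median of 0.28; Nes no longer passed with values under 150 set to 150. Tac2, the neurokinin B precursor, had 1068, 589, 1611 and 2902, against 188 in SC4, opposite to the Penk result. Of 28 Hox genes, Hoxa9, Hoxc6 and Hoxc8 were higher and Hoxa2 was lower, with a median of 0.15; Hoxa9 no longer passed with values under 150 set to 150. Hoxc6 had 453 to 476 in poised cells, against the floor in SC4 and 1164 in MEF.

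Proliferation genes had no member past 2-fold on all 4 arrays, and their medians lay slightly below SC4. By any amount, 29.0% of all counted genes lay below SC4 on all 4 poised arrays and 28.2% above. Of 44 S phase genes, 24 (54.5%) lay below SC4 on all 4 poised arrays and none above, with a median of -0.17 log2 units, and of 52 G2 and M phase genes, 34 (65.4%) lay below and none above, with a median of -0.24. The differences of single genes were all under 2-fold on at least 1 array. Of 25 Polycomb genes, 13 (52.0%) lay below SC4 on all 4 arrays and none above (median -0.11), and none passed. Among 28 p53 and cell cycle inhibitor genes, the receptor phosphatase gene Ptprv, a p53 target in mouse cells, was lower (350 to 619, against 1305 in SC4). Of 19 glycolysis genes, the lactate dehydrogenase chain Ldhb was higher (1091 to 1378, against 496 in SC4). The medians of the p53 and glycolysis lists were 0.07 and -0.13.

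Signalling and stress lists each had few members past the limit, to be read beside 2.26% higher and 1.47% lower of all counted genes. Of 26 interferon response genes, Irf9 and Ifi27 were higher, with a list median of 0.39; Irf9, which joins STAT proteins in the interferon response, had 506, 367, 375 and 696, against 113 in SC4. Irf9 lies on chromosome 14, whose genes as a group were higher in poised cells, and Ifi27 no longer passed with values under 150 set to 150 (1.80-fold on its lowest array). Of 20 immediate early and heat shock genes, Hspa1a and Hspa1b, nearly identical heat shock proteins that probe sets may not separate, were higher and Gadd45b and Hspb1 were lower, Hspb1 no longer so with its probe sets averaged (1.90-fold on its closest array). Of 16 chemokine and cytokine genes, Ccl7, a monocyte attractant, was higher (741 to 1498, against 180 in SC4). Of 15 BMP and Id genes the BMP antagonist Grem1 was higher, though by 1.65-fold on its lowest array with values under 150 set to 150, and of 21 FGF-ERK response genes the feedback inhibitor Spry1 was higher (523 to 681, against 180). Of 21 Wnt pathway genes, the pathway inhibitors split: Nkd2 was higher (583 to 826, against 171 in SC4) and Apcdd1 was lower (582 to 1094, against 3858). The list medians were 0.20 for immediate early and heat shock genes, 0.06 for chemokines and cytokines, 0.06 for BMP and Id genes, -0.09 for FGF-ERK response genes and -0.02 for Wnt pathway genes.

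Defining markers of other cell types that the samples could hold were read as summed levels of each list. Each sum ran over all genes of the list with a probe set, and a gene at the floor entered it with the floor value. Part of every sum below is therefore floor and not signal, so the sums are not expression levels and their ratios are not folds. Of 12 macrophage and blood cell markers with a probe set, 10 were at the floor on all 5 arrays, including Ptprc, Csf1r and Lyz2; Laptm5 was lower in poised cells (303, 178, 335 and 216, against 1203 in SC4), and the summed level was 1772 to 1894 in poised cells and 2686 in SC4. Endothelial markers summed to 2412 to 2935 in poised cells and 2469 in SC4, with 4 of 12 at the floor on all 5 arrays (Tie1, Emcn, Vwf and Erg). Skeletal muscle markers summed to 1609 to 2065 in poised cells and 1820 in SC4, with 8 of 14 at the floor on all 5 arrays. Trophoblast genes summed to 2228 to 2621 in poised cells and 1963 in SC4, and Cdx2 and Elf5 were at the floor on all 5 arrays. Primitive endoderm and mesendoderm genes summed to 2080 to 2416 in poised cells and 1559 in SC4; Gata6 and Sox17 were at the floor on all 5 arrays and the adaptor Dab2 was higher (665 to 909, against 139). The median of the 2 macrophage and blood cell markers counted was -1.02. List medians were 0.11 for trophoblast, 0.09 for endothelial, -0.08 for skeletal muscle and -0.05 for primitive endoderm and mesendoderm genes. The part of other cells in the differences was not tested.

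The lists of sorting markers, reprogramming factors, germ cell genes, cholesterol synthesis, MHC class I and DNA methylation enzymes had no member past the limit, as had the cell cycle, Polycomb, trophoblast, endothelial and skeletal muscle lists. In all, 12 of 35 lists had none. With 2.26% of all counted genes higher and 1.47% lower, a short list with no member past the limit is near the overall share. Of 21 germ cell genes with a probe set, 19 were at the floor on all 5 arrays. List medians were -0.05 for 8 MHC class I genes, -0.07 for 13 DNA methylation and demethylation enzymes and 0.04 for 19 cholesterol synthesis genes. The last of these became -0.02 when each array was centred on its median, and the basement membrane and BMP and Id medians also turned negative there.

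**Figure D4:**
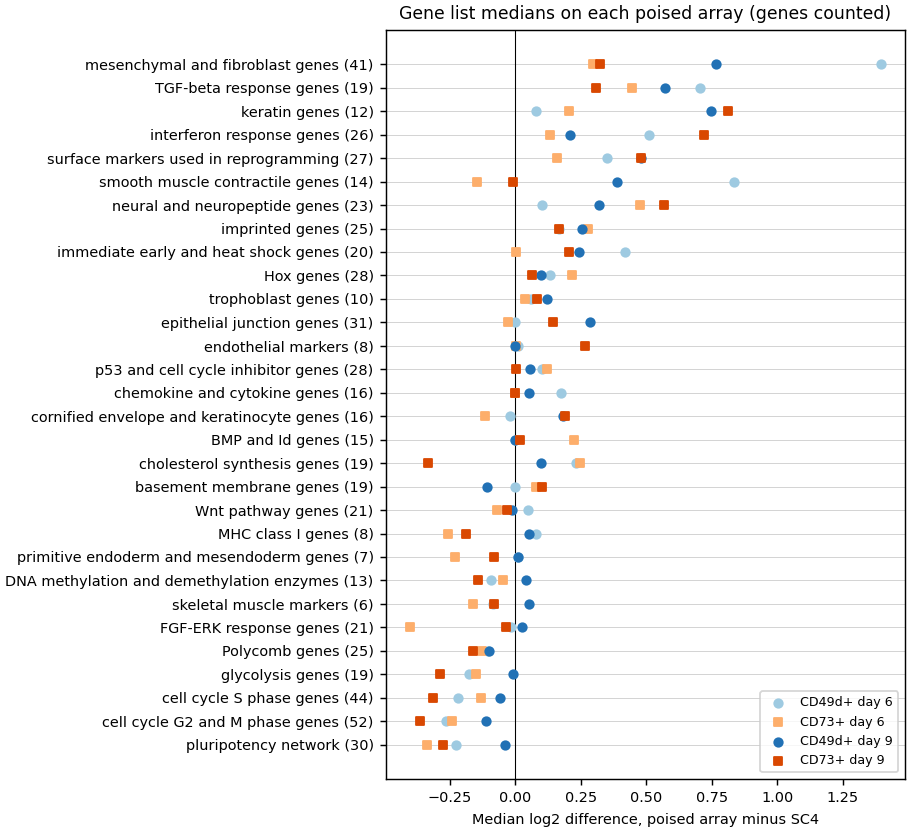
Median log2 difference from SC4 (horizontal axis) of each gene list with at least 5 counted genes on each of the 4 poised arrays, with the number of genes counted in parentheses. Lists are ordered by the median of the mean difference; mesenchymal and fibroblast genes, at the top, have medians of 0.30 to 1.40 over the 4 arrays, and the order of the lists differs from array to array.

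The genes that differed were then looked up in MEF and ESC, which share no array with the comparison. Of the 293 higher members, 146 (49.8%) were at least 2-fold lower in ESC than in MEF, against 12.3% of all counted genes, and 21 (7.17%) were higher, against 11.9%. Of the 191 lower members, 45 (23.6%) were higher in ESC than in MEF and 23 (12.0%) were lower. The median intensity of the higher members was 700 in poised cells and 167 in SC4, beside 809 in MEF and 285 in ESC. That of the lower members was 162 in poised cells and 763 in SC4, beside 151 in MEF and 191 in ESC. In CD73- cells, as the mean of day 6 and day 9, these medians were 625 for the higher and 125 for the lower members. The levels of the members as a set were therefore not particular to poised cells. By these medians the higher members were near the MEF level in poised cells, and the lower members were high in SC4 and low in both MEF and ESC.

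The higher members were unevenly spread over the genome. Of 448 counted genes of chromosome 14, 39 (8.71%) were higher in poised cells, against 1.14% to 3.75% on the other chromosomes, and 5 were lower. Chromosome 14 held 13.3% of the higher members and 3.46% of the counted genes. The shift was broad and not limited to members: of 380 chromosome 14 genes above the floor on all 5 arrays, 311 (81.8%) lay above SC4 on average, against 48.7% of 10732 genes elsewhere. Their median difference was 0.47 log2 units (0.45 to 0.50 on the 4 arrays). The medians of the other chromosomes ran from -0.14 (chromosome 12) to 0.05 (X). Chromosome 12 was shifted the other way on all 4 arrays (-0.10 to -0.15), with 31.8% of its 396 genes above SC4. Why chromosome 12 was shifted was not tested. In chromosome order, the first 38 of the 380 chromosome 14 genes had a median of 0.02 with 20 above SC4. The next 9 blocks of 38 had medians of 0.36 to 0.63.

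Single genes of the chromosome varied around this level. Htr2a, given above, was the furthest from SC4. Prxl2a, a peroxiredoxin-like protein gene, had 631, 660, 770 and 632, against the floor in SC4 (at least 6.31-fold), and Farp1, a guanine nucleotide exchange factor gene, had 958, 824, 576 and 734, against 109. Ripk3, the kinase of necroptosis, had 722, 536, 896 and 645, against 155 in SC4. Many widely expressed genes were just past the limit, such as the myotubularin relative Mtmr9 with 2083, 2011, 2051 and 2034, against 918 in SC4. The cathepsin Ctsb had 3258, 2346, 3031 and 2601, against 1073. These genes besides Htr2a and Irf9 were chosen after their values were seen. The same median was 0.08 for CD73- day 6 cells minus MEF, which share no array with this comparison. DNA was not measured, and why chromosome 14 was lower in SC4 was not tested.

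**Figure D5:**
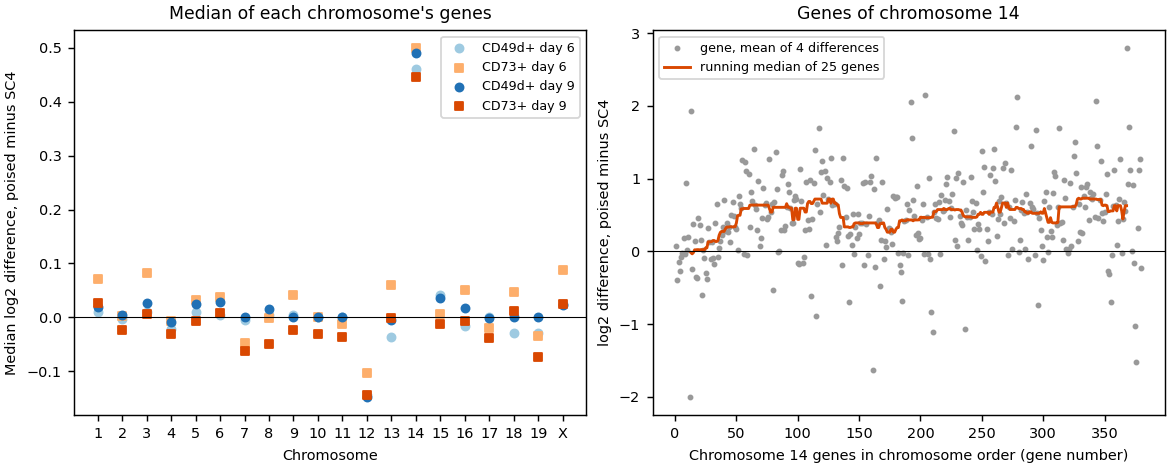
Left, median log2 difference from SC4 of the genes of each chromosome on each of the 4 poised arrays; right, the mean of the 4 log2 differences of 380 chromosome 14 genes in chromosome order, with a running median of 25 genes. Chromosome 14 lies at 0.45 to 0.50 on the 4 arrays, and the running median leaves 0 after the first genes of the chromosome.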

How the data were processed

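RNA of 11 mouse cell samples was hybridised to Affymetrix whole-transcript gene arrays, 1 array per group. The authors deposited 1 table of linear intensity for 41345 probe sets with a floor of 100, which holds 52.1% to 53.6% of the probe sets on the 5 arrays used; the median intensity above it was 361 to 388. Partek is named, without a version, per the submitters' processing notes; background correction, summarisation and scaling: not given in the sources used here. Names came from the platform's GEO annotation, with symbols updated through gene identifiers (23328 matched) in a RefSeq table of GRCm38.p6: 23521 had 1 symbol, 1814 several and 16010 none. A gene with several probe sets (1082 of 22180) took the one of highest mean over the 11 arrays.

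The log2 of the deposited intensity of SC4 was subtracted from that of each poised array, with no further scaling (Python 3.11.15, pandas 2.3.3). Genes at the floor on all 5 arrays were not counted. The single SC4 array allows no test, and the number of arrays limits the precision. The counting was tested on simulated data. Genes named are the 15 higher and 15 lower with the greatest smallest difference (predicted genes and short RNAs left out), the sorting markers, factors and 3 given markers, and up to 4 members of each of 35 lists past the limit; others are said to be picked out later. A further rule, for genes 2-fold opposite between days or gates, found none. Members and lists were chosen with earlier results of these data known. Alternatives were other scalings, probe set averaging, floors, folds, and leaving out each poised array or, added after seeing the data, chromosome 14.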

Additional observations from a re-analysis of the deposited data

Results flagged for a closer look

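The 2 gates lay on opposite sides of SC4, at both days, for Myc and for the medians of 3 lists, and these differences between gates were not tested. For Myc the CD49d+ arrays lay above SC4 and the CD73+ arrays below it, with the gates 0.41 log2 units apart. The list medians of smooth muscle contractile genes were 0.69 apart and those of MHC class I genes 0.29. Those of primitive endoderm and mesendoderm genes were 0.17 apart. In each list CD49d+ lay above SC4 and CD73+ below it. Some medians were close to SC4: 0.011 on both CD49d+ arrays for primitive endoderm and mesendoderm genes, and -0.0069 on CD73+ day 9 for smooth muscle. Centring each array moved the median over all genes from 0.0032 to -0.055, so the side of such small medians depends on the scaling.

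The 2 days lay on opposite sides of SC4 for the cornified envelope and keratinocyte genes, whose medians were above SC4 at day 9 and below it at day 6, 0.25 log2 units apart. This difference was not tested.

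Probe sets without a single gene name also carried differences. Of 8235 of them above the floor on at least 1 of the 5 arrays, 57 (0.692%) were at least 2-fold higher on all 4 poised arrays and 115 (1.4%) were lower.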

How the results depend on the processing

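With each array centred on its median the counts were 273 higher and 210 lower, with quantile normalization 289 and 190, with all probe sets of a gene averaged 284 and 182, and with values under 150 set to 150 they were 244 and 165. Among genes above the floor on all 5 arrays, 227 were higher and 118 lower. A 1.5-fold limit gave 715 higher and 433 lower, and a 4-fold limit 69 and 57. Leaving out 1 poised array in turn gave 307 to 345 higher and 200 to 221 lower, and a median difference of 0.00073 to 0.0106. The median over all genes, 0.0032 log2 units as deposited, was -0.055 centred, -0.0042 after quantile normalization, -0.00066 among genes above the floor on all 5 arrays and 0.0116 with values under 150 set to 150. Without chromosome 14, an alternative chosen after seeing the data, 254 genes were higher and 186 lower, with a median of -0.0013. Named genes were also valued under the 2 scalings, probe set averaging, the floor of 150 and the 4 leave-outs. Of 631 such values, 575 moved by less than the spread of the 4 differences, 56 moved further and 0 changed sign. Leaving out 1 of 4 arrays cannot move a mean beyond that spread, so no leave-out could count as moved. Averaging leaves genes with 1 probe set unchanged. The 56 comprised 30 with the floor of 150, 12 on centring, 9 with quantile normalization and 5 with probe sets averaged. Of 86 called genes that were named or on a list, 7 lost the 2-fold limit with values under 150 set to 150 (Cd34, Grem1, Hoxa9, Ifi27, Krt13, Nes and Postn), 2 with probe sets averaged (Ccn2 and Hspb1), 1 on centring (Itga5) and 0 with quantile normalization. Averaging probe sets also moved the log2 differences of Bgn to 2.44, Dsg2 to -1.33, Serpinb9b to -1.82 and Plagl1 to 1.13, all still past the limit. List medians changed sign on centring for germ cell, basement membrane, BMP and Id, and cholesterol synthesis genes. No paired analysis was possible because each group has 1 array. All differences rest on the single SC4 array, so an error in that array would enter all of them, and values at the floor bound a fold from below only.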

Other observations

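Genes of glutathione metabolism and oxidant defence, a list added after the data were seen, included 4 of 26 counted genes lower in poised cells and none higher, with a list median of -0.13 log2 units. Gsta3, a glutathione transferase, and Aox3, an aldehyde oxidase, were at the floor on all 4 poised arrays, against 444 and 448 in SC4. Gsta4, a glutathione transferase for lipid peroxidation products, had 1713, 1330, 2517 and 2769 in poised cells, against 5850 in SC4, and the cystine transporter Slc7a11 was also lower. Gclm, a subunit of the enzyme that starts glutathione synthesis, had 1972, 1766, 2076 and 1757, against 3655 in SC4, and the glutathione reductase Gsr had 2432, 2777, 2608 and 2578, against 4639. Both lay below SC4 on all 4 arrays and neither by 2-fold on all 4.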
